A study of Mus musculus with 12 samples.

Results

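Cytosolic ribosomal protein genes were followed in spinal cords of aged and young mice, with and without spinal cord injury (SCI). A gene was taken when the array annotation gave a probe that matches it alone and its symbol starts with Rpl or Rps and a digit, with the ribosomal protein S6 kinases (Rps6k) left out. These were 48 of 18194 genes with such a probe, and each was read by its probe of highest mean signal over the 12 arrays. Not every symbol stands for a ribosomal protein. Rps19bp1 encodes a protein that binds RPS19, Rpl7l1 is a relative of Rpl7, and Rps4l and Rps15a-ps6 are transcribed pseudogenes in RefSeq. In addition, 28 ribosomal protein symbols appear only on probes that match several genes and are not among the 48.

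The 4 groups held 3 arrays each, 1 per mouse: aged mice with SCI (aged injured), young mice with SCI (young injured), aged mice without SCI (aged intact) and young mice without SCI (young intact). All mice were female and of the strain C57BL/6, named as C57BL/6J in the methods of the study. The aged mice were 15 to 18 months old and the young mice 2 to 3 months old. RNA came from the cord at Th9, the level of the contusion, and injured cords were taken on day 9 after SCI. A segment is a mixture of all cell types of the cord and, after SCI, of cells from the blood, so a higher number of cells rich in an RNA and more of that RNA per cell cannot be told apart.

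A ribosome consists of a small (40S) and a large (60S) subunit, each built from ribosomal RNA and many small, mostly basic proteins. The proteins, named Rps in the small and Rpl in the large subunit, are needed in equal numbers, and their mRNAs are among the most abundant of any cell. Most of these mRNAs start with a C followed by a run of C and T (U in RNA), the 5′ terminal oligopyrimidine (TOP) motif, through which the kinase mTOR and the RNA-binding protein Larp1 control their translation as a group. Some members have a paralogue that can take their place in the ribosome. In mice, Rpl22 protein is known to bind Rpl22l1 mRNA and to lower its level.

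The gene starts below are shown because the TOP motif lies there and because they include both pairs of relatives, Rps27l with Rps27 and Rpl22 with Rpl22l1, that are compared later. Each runs 5′ to 3′ on the strand of the gene from 15 bases before to 15 bases after the RefSeq start (build GRCm38.p6), with capitals for the longest run of at least 5 C or T that begins with C, the first where runs are equally long. Shorter or equal runs elsewhere in a window stay in lower case. Rpl22 and Rps27l each have another RefSeq start, which holds no such run and is not shown. Starts of other members without such a run, such as those of Rps4x and Rps3a1, are not shown either.
Rpl35, chr2:39005117-39005146, minus strand: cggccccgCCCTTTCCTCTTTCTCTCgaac
Rpl7a, chr2:26910792-26910821, plus strand: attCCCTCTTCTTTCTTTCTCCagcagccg
Rps18, chr17:33955651-33955680, minus strand: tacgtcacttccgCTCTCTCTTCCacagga
Rps27l, chr9:66946071-66946100, plus strand: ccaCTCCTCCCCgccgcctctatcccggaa
Rps27, chr3:90213634-90213663, minus strand: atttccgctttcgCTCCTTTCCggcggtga
Rpl22, chr4:152324421-152324450, plus strand: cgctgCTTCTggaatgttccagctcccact
Rpl22l1, chr3:28805493-28805522, plus strand: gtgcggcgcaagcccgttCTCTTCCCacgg
In Rpl35, Rpl7a, Rps18 and Rps27 the marked run covers the annotated start, in Rpl22l1 it lies after the start, and in Rpl22 and Rps27l it lies before it, with a further unmarked run after the start in both. RefSeq start sequences were found for 41 of the 48 genes, and 28 of these (68.3%) held such a run within the window, against 40.3% of all 27025 genes of the table. A run of at least 8 was held by 18 of the 41 (43.9%), against 10.8% of all genes. The letters C and T were searched on the strand of the gene, and a match describes the letters only.

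For 44 of the 48 genes, the mean signal lay above 50, the cutoff of the study, in at least 1 group, and these were tested among 10511 genes. The 4 below the cutoff were Rps16, Rpl3l, Rps15a-ps6 and Rpl39l, with a highest group mean of 2.1, 4.3, 7.27 and 34.6. Rpl3l is the skeletal muscle paralogue of Rpl3, and Rpl39l the testis paralogue of Rpl39. Rps16, an essential protein of the small subunit, read 0.1 to 3.9 on all 12 arrays, so its only single-gene probe gives no usable level. The members just above the cutoff were Rpl12, Rpl14, Rpl39 and Rps27, with a highest group mean of 57.5, 70.0, 80.6 and 81.5. At the other end, 33 of the 44 had a mean signal above 1000 over the 12 arrays. The probe of Rps29, a zinc-binding protein of the small subunit, had the highest signal of all 45101 probes on 4 of the 12 arrays.

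Most ribosomal protein genes had a higher signal after SCI at both ages. The median signal of the 44 members was 3895, 3505 and 3746 on the aged injured arrays, against 2435, 2501 and 2273 on the aged intact arrays. It was 3520, 3146 and 3605 on the young injured arrays, against 2464, 2403 and 2279 on the young intact arrays. The lowest injured array thus lay above the highest intact array at both ages, while the aged and young ranges overlapped both with and without SCI. As group means, these were 3715 ± 197 for aged injured, 3424 ± 244 for young injured, 2403 ± 117 for aged intact and 2382 ± 94.4 for young intact cords (SD, n = 3 each). The number of members above the signal that marks the top 1% of probes was 30 to 31 on the injured arrays and 22 to 27 on the intact arrays.

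**Figure D1:**
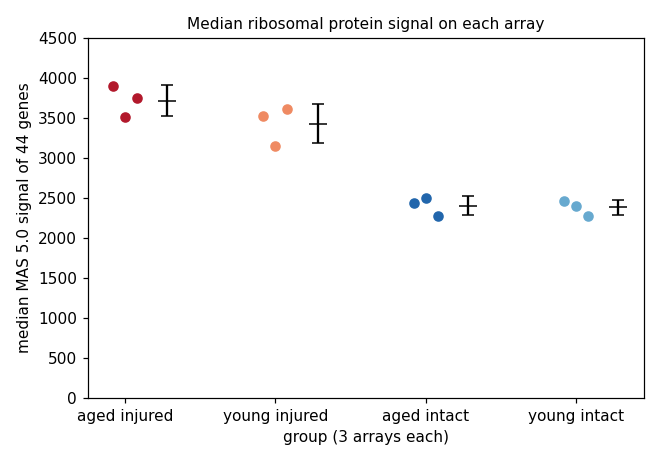
Median MAS 5.0 signal of the 44 tested ribosomal protein genes (vertical axis) on each array, by group (horizontal axis). Coloured points are arrays, and black marks with bars are the group mean and SD. The 6 injured arrays sit between 3146 and 3895, all above the 6 intact arrays, which sit between 2273 and 2501.

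The members were then tested one by one with limma over all 10511 genes, and a gene was called at a Benjamini-Hochberg adjusted p under 0.05. In aged mice, 38 of 44 members were higher and 3 lower in injured than in intact cords, where 35.6% of all genes tested were called higher and 39.9% lower. In young mice, 36 of 44 were higher and 2 lower in injured cords, against 33.9% and 34.1% of all genes. The median log2 fold change of the members was 0.46 in aged and 0.41 in young mice, and that of all genes tested was -0.04 and -0.0048. Both subunits were represented alike, with 19 of 22 large and 19 of 22 small subunit symbols higher in aged mice and 17 of 22 and 19 of 22 in young mice.

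Separation of single arrays gave similar counts. In aged mice, 39 members had all 3 injured arrays above all 3 intact arrays and 3 had them below, against 36.7% and 41.6% of all genes. In young mice these numbers were 36 and 2, against 37.5% and 38.7% of all genes. For 34 members, all 6 injured arrays lay above all 6 intact arrays, which was so for 29.6% of all genes tested. Only Rpl22l1 among the 44 had all 6 injured arrays below all 6 intact arrays, against 32.6% of all genes.

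**Figure D2:**
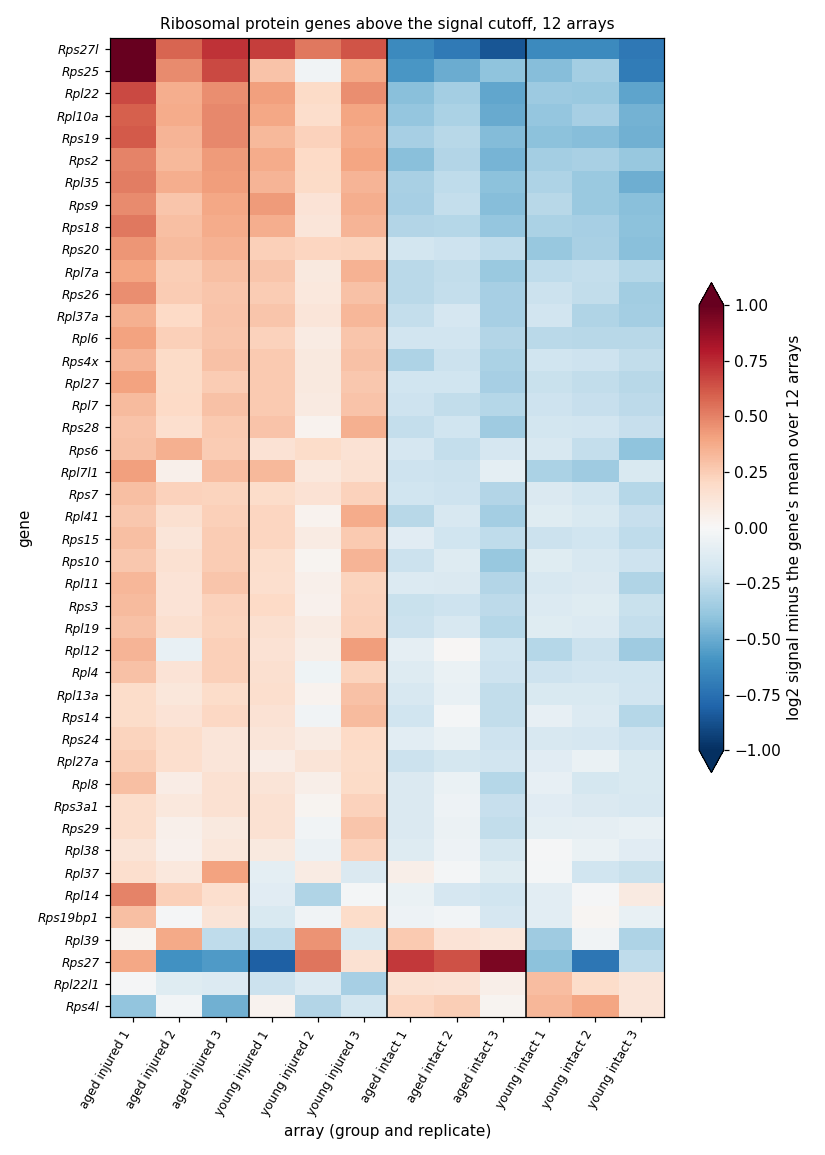
Log2 signal of each of the 44 tested genes (rows) on each of the 12 arrays (columns), minus the mean of that gene over the 12 arrays; the colour scale ends at -1 and 1. Rows are ordered by the sum of the injury log2 fold changes at both ages. The injured columns on the left are above the mean (red) in most rows, and the bottom rows Rpl22l1 and Rps4l run the other way.

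The background of all genes holds few probes as bright as these. Among the 769 other genes with a mean signal above 1000, 36.0% were called higher in aged and 34.1% in young injured cords, and their median log2 fold changes were -0.11 and -0.098. Of the 33 members above that signal, 32 were higher and 1 lower in aged mice, and 31 were higher and 1 lower in young mice. The 11 members with weaker probes were more mixed, with 6 higher, 2 lower and 3 not called in aged mice and 5 higher, 1 lower and 5 not called in young mice. Among the 33 bright members, Spearman's rho across genes between mean signal and log2 fold change was -0.41 in aged and -0.35 in young mice, and 0.09 at both ages among the 769 others. These genes share the same arrays and are no independent replicates. With quantile normalization in place of the deposited scaling, the median log2 fold change was 0.26 in aged and 0.25 in young mice, with 31 higher and 3 lower and with 35 higher and 2 lower members. Under it, 35.3% of all genes were called higher in aged and 33.1% in young mice, and the shares called lower are not given here.

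Many other markers moved with SCI on the same arrays. All 20 of 20 macrophage and microglia markers were called higher after SCI at both ages, and their summed signal was 53222 to 61747 on aged injured and 42668 to 54915 on young injured arrays, against 8480 to 8706 on aged intact and 5031 to 5450 on young intact arrays. Proliferation markers were higher in 17 of 17 tested genes in aged and 16 of 17 in young mice, with sums of 3981 to 7550 in aged injured and 2538 to 3223 in young injured cords, against 1246 to 1271 in aged intact and 1296 to 1390 in young intact cords. Fibroblast and meningeal markers were higher in 9 of 10 at both ages. Of 10 astrocyte markers, 0 were higher and 7 lower in aged and 2 higher and 2 lower in young mice. Of 10 oligodendrocyte markers, 0 were higher and 6 lower in aged and 1 higher and 2 lower in young mice. Neutrophil markers were higher in 2 of 6 in aged and 1 of 6 in young mice. Of all genes, 35.6% were higher and 39.9% lower in aged and 33.9% and 34.1% in young mice. Neuron markers were lower in 17 of 17 in aged and 11 of 17 in young mice, with sums of 2273 to 13599 in aged injured and 9594 to 14869 in young injured cords, against 28814 to 29249 in aged intact and 27909 to 29320 in young intact cords. Their part in the higher ribosomal protein signal was not tested. Of the red blood cell markers, 5 had a single-gene probe, and these were below the cutoff in all 4 groups. Other listed genes of that type, among them Hbb-bs and Hbb-bt, were not read, so the amount of red blood cell RNA stays unknown. The aged injured arrays differed most among themselves, with a mean distance of 58.6 over all genes, against 31.4 in young injured, 26.9 in aged intact and 26.8 in young intact cords. Leaving out each of the 12 arrays in turn gave 36 to 40 members higher in aged and 35 to 37 in young mice. The share of all genes called higher was then 33.3% to 36.1% in aged and 30.8% to 35.5% in young mice.

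The largest rise at both ages was that of Rps27l. Rps27l is a paralogue of the small subunit protein Rps27 and, in human cells, a target of the tumour suppressor p53. Its signal was 2343, 1712 and 1888 in aged injured cords, against 733, 701 and 630 in aged intact cords. In young mice it was 1846, 1643 and 1770 in injured cords, against 736, 734 and 695 in intact cords. Every injured value was more than 2 times every intact value. The log2 fold change was 1.52 ± 0.11 (SE, adjusted p = 5.3e-07) in aged and 1.28 ± 0.11 (adjusted p = 2.5e-06) in young mice. Its other 2 single-gene probes gave 1.53 and 1.66 in aged and 1.19 and 1.33 in young mice.

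Rpl22, an RNA-binding protein of the large subunit that T cells need to develop in mice, came next among the bright probes. It read 4999, 4078 and 4381 in aged injured cords, against 2368, 2499 and 2210 in aged intact cords. In young mice it read 4214, 3624 and 4367 after SCI, against 2461, 2450 and 2196 in intact cords. The log2 fold change was 0.92 ± 0.09 in aged and 0.78 ± 0.09 in young mice. A second probe gave 1.04 and 0.96, whereas another, weaker probe with a mean signal of 341 gave -0.17 and 0.17, so the 3 probes of Rpl22 disagree.

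Rpl10a, a protein of the mobile L1 stalk of the large subunit, had a signal of 4261, 3649 and 3933 in aged injured cords, against 2156, 2260 and 1992 in aged intact cords. Its log2 fold change was 0.89 ± 0.08 in aged and 0.72 ± 0.08 in young mice. Rps19, a small subunit protein mutated in human Diamond-Blackfan anaemia, had a signal of 3425, 2837 and 3134 in aged injured cords, against 1786, 1846 and 1657 in aged intact cords. Its log2 fold change was 0.83 ± 0.07 in aged and 0.75 ± 0.07 in young mice. All of these injured values lay above all intact values of their gene. Rps2 (0.81 in aged and 0.67 in young mice), Rpl35 (0.76 and 0.68), Rps18 (0.72 and 0.63) and Rps9 (0.71 and 0.66) followed on the log2 fold change scale, all called at both ages. Rps2 and Rps9 are proteins of the small subunit near the path of the mRNA, and Rpl35 lies at the exit of the peptide tunnel. Rps25, a small subunit protein known in human cells and yeast for its role at viral internal ribosome entry sites, was read by a weak probe. It gave 247, 151 and 172 in aged injured cords, against 72.7, 77.0 and 82.4 in aged intact cords, and 133, 106 and 141 in young injured cords, against 80.9, 85.8 and 66.8 in young intact cords. The log2 fold change was 1.26 ± 0.18 in aged and 0.70 ± 0.18 in young mice.

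The middle of the set was narrow. The central 50% of the 44 members spanned log2 fold changes of 0.32 to 0.59 in aged and 0.30 to 0.51 in young mice, where that of all genes tested spanned -0.65 to 0.55 and -0.47 to 0.51. Rps6, the small subunit protein that S6 kinases phosphorylate, gave 409, 426 and 397 in aged injured cords, against 296, 282 and 297 in aged intact cords. It was called higher at both ages, with a log2 fold change of 0.50 in aged and 0.42 in young mice. Across the 33 bright members, the log2 fold changes of aged and young mice, which share no array, had a Pearson's r of 0.98 and a Spearman's rho of 0.97. Over all 44 members r was 0.73, and over all 10511 genes it was 0.95, which describes genes on the same arrays and not replicates.

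**Figure D3:**
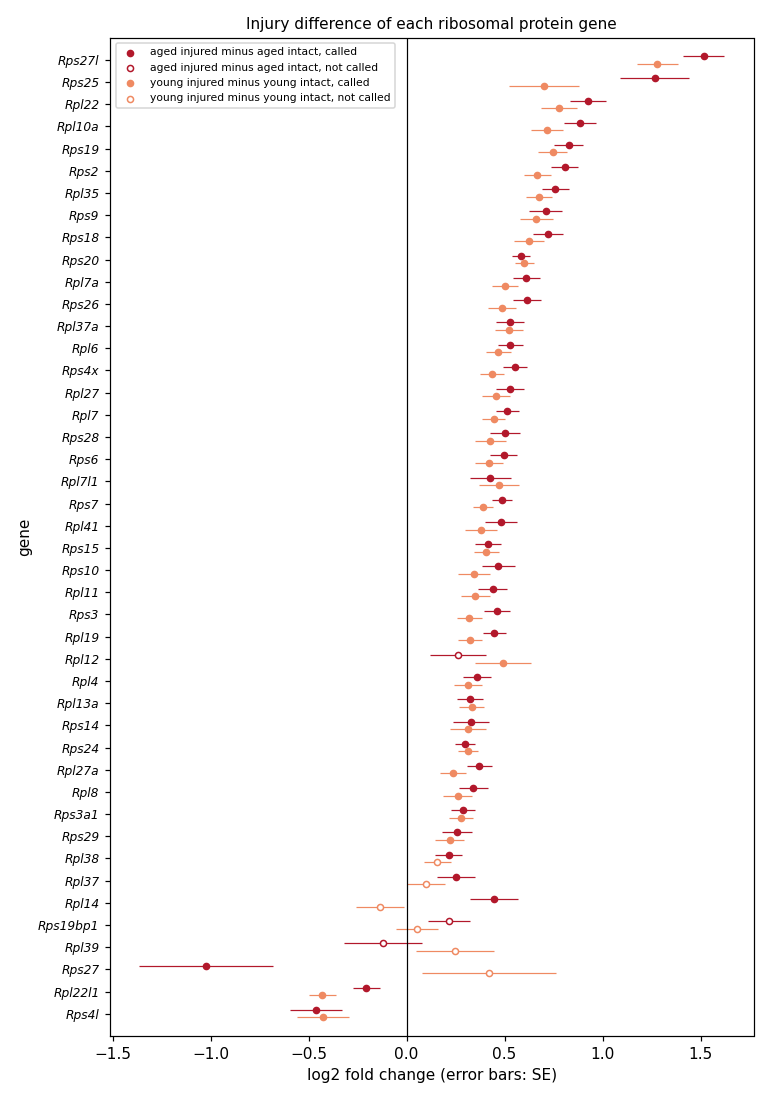
Log2 fold change between injured and intact cords (horizontal axis) of each of the 44 genes (vertical axis), in aged (dark red) and young (orange) mice. Bars are the SE of the limma fit, filled points were called and open points were not. Most genes lie between 0.2 and 0.9 at both ages, Rps27l lies beyond 1.2, and Rpl22l1 and Rps4l lie below 0. Rps27, which lay under the cutoff in 3 of the 4 groups, and Rpl12 are drawn as fitted.

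The members Rpl22l1 and Rps4l were lower after SCI at both ages. Rpl22l1, the paralogue that can replace Rpl22 in the ribosome, had a signal of 1977, 1839 and 1809 in aged injured cords, against 2211, 2205 and 2072 in aged intact cords. In young mice it had 1714, 1815 and 1585 after SCI, against 2468, 2266 and 2165 in intact cords. The groups did not overlap at either age, and the log2 fold change was -0.21 ± 0.07 (adjusted p = 0.018) in aged and -0.43 ± 0.07 (adjusted p = 0.00027) in young mice. The aged call did not hold when the first or second aged intact array or the third aged injured array was left out, with adjusted p of 0.0571, 0.0540 and 0.0625 in that order. Rpl22l1 has 1 single-gene probe, which leaves its fall without a second measurement. Read by the brightest probe of Rpl22, the pair Rpl22 and Rpl22l1 moved in opposite directions at both ages, relative to the same arrays. The weakest Rpl22 probe gave -0.17 in aged mice, the direction of Rpl22l1, and 0.17 in young mice.

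Rps4l, the pseudogene copy of the X-linked Rps4x, gave 168, 217 and 158 in aged injured cords, against 256, 262 and 225 in aged intact cords. In young mice it gave 227, 180 and 194 after SCI, against 277, 291 and 240 in intact cords. Its log2 fold change was -0.46 ± 0.13 (adjusted p = 0.0081) in aged and -0.43 ± 0.13 (adjusted p = 0.014) in young mice. The young call was lost without young intact replicate 2 (adjusted p = 0.0553) and without young injured replicate 2 (0.0545). Rps4x itself, a small subunit protein, was higher, with 4971, 4486 and 4825 in aged injured cords, against 3179, 3383 and 3158 in aged intact cords, and a log2 fold change of 0.55 in aged and 0.43 in young mice. Whether the probe of Rps4l also binds RNA of the near-identical Rps4x cannot be read from these files.

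The single-gene probe of Rps27 was weak and did not follow Rps27l. It gave 62.6, 31.5 and 32.4 in aged injured cords, against 78.2, 74.3 and 92.1 in aged intact cords. In young mice it gave 27.2, 69.4 and 53.2 after SCI, against 36.1, 29.0 and 40.1 in intact cords. Its signal was at least 1.63-fold lower in aged injured than in aged intact cords, against the cutoff of 50 as the floor (adjusted p = 0.018), and in young mice the groups overlapped and both means lay under the cutoff, so no fold is given (adjusted p = 0.29). The aged call was lost without aged intact replicate 3 (adjusted p = 0.0587), aged injured replicate 2 (0.0605) or aged injured replicate 3 (0.0649), and in young mice it became a call upward without young injured replicate 1 (adjusted p = 0.0362). Rps27 is an abundant mRNA, and this probe reads near the cutoff on all 12 arrays.

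**Figure D4:**
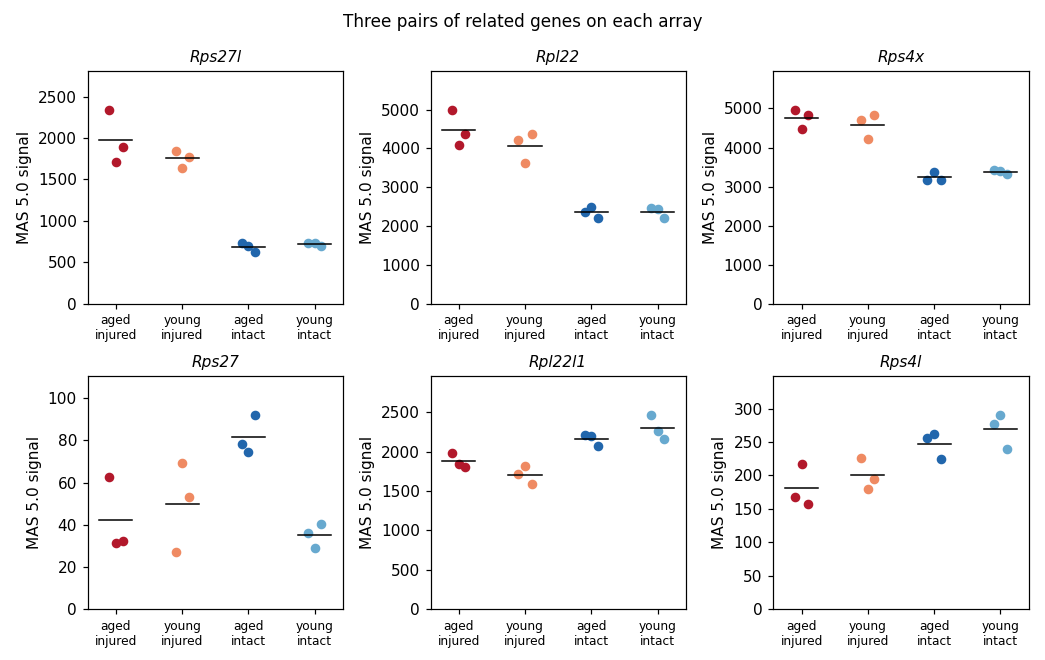
MAS 5.0 signal (vertical axes, each from 0) of 3 pairs of related genes on each array, by group (horizontal axes). Points are arrays and black lines are group means. Rps27l, Rpl22 and Rps4x in the upper row are higher in both injured groups, whereas Rpl22l1 and Rps4l in the lower row are lower in both, and Rps27 stays below 100 on every array.

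Other relatives were called higher after SCI, like most of the set, or were not called. Rpl7, a large subunit protein, had a log2 fold change of 0.51 in aged and 0.44 in young mice, and Rpl7l1, which resembles a yeast factor of large subunit assembly, 0.43 and 0.47, all 4 called. Rps19bp1 gave 0.22 (adjusted p = 0.085) and 0.05 (adjusted p = 0.68), beside the rise of Rps19. Without aged injured replicate 2 it was called higher in aged mice (log2 fold change 0.29, adjusted p = 0.0349). Rpl39, a very small protein that lines the peptide tunnel, read between 56.0 and 97.9 on all arrays and was not called at either age (log2 fold change -0.12 in aged and 0.25 in young mice). Its paralogue Rpl39l lay below the cutoff on average in all 4 groups.

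To ask which members left the common course, each array was centred on the median log2 signal of the 44 members and the fit was repeated. After this centring, 7 members were called upward and 26 downward in aged mice, where 16.7% of all genes were called upward and 67.8% downward. In young mice, 8 members were called upward and 21 downward, against 16.6% and 63.5% of all genes. The downward counts depend on where the centre is put. With the centre taken as the median deviation of the members from their own 12-array means, an alternative added after the data were seen, 12 were upward and 13 downward in aged mice, against 19.9% and 61.6% of all genes, and 11 were upward and 9 downward in young mice, against 19.5% and 57.0%. Upward by both centres at both ages were 6 members, Rps27l, Rpl22, Rpl10a, Rps19, Rps2 and Rpl35. Downward by both centres at both ages were 7 members, Rps4l, Rpl22l1, Rps19bp1, Rpl38, Rps29, Rps3a1 and Rpl8.

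The sizes given next are from the first centre, by which the median member itself departed by -0.16 in aged and -0.11 in young mice. The departures upward were largest for Rps27l, at 0.89 above the centre in aged and 0.76 in young mice on the log2 scale, followed among members upward at both ages by Rpl22 (0.30 and 0.26), Rpl10a (0.26 and 0.20) and Rps19 (0.20 and 0.22). Rps25 left the set upward in aged mice (0.64, adjusted p = 0.0019) and not in young mice (0.18, adjusted p = 0.28). Downward at both ages, Rps4l departed by -1.09 in aged and -0.95 in young mice, and Rpl22l1 by -0.84 and -0.95. Downward by both centres in aged mice only were Rps27, Rpl39, Rpl13a, Rpl4, Rps14 and Rps24. Rps27 departed furthest there, but its aged injured mean lay under the cutoff, so no size is given. Rpl39, also near the cutoff, departed by -0.75 (adjusted p = 0.011). Downward by both centres in young mice only were Rpl14 (-0.66, adjusted p = 0.00038) and Rpl37 (-0.42, adjusted p = 0.0057). By the second centre, Rpl22 departed by 0.45 in aged and 0.38 in young mice and Rpl22l1 by -0.68 and -0.83. Of the members downward at both ages, Rpl38, Rps29, Rps3a1, Rpl8 and Rps19bp1 had positive log2 fold changes, smaller than the median of the set. Rpl38, a large subunit protein needed in mice for the translation of Hox mRNAs, gave 6428, 6073 and 6387 in aged injured cords, against 5389, 5697 and 5207 in aged intact cords. Its log2 fold change was 0.21 in aged mice (adjusted p = 0.015) and 0.16 in young mice (adjusted p = 0.065). Rps29 (0.26 in aged and 0.22 in young mice), Rps3a1 (0.29 and 0.28) and Rpl8 (0.34 and 0.26) were called at both ages. Rpl38 and Rps29 are also the brightest probes of the set together with Rpl13a (0.32 and 0.33), and under quantile normalization Rpl38 was at -0.0082 in aged and -0.011 in young mice and Rps29 at 0.015 at both ages, none called. Rpl37 was called higher in aged mice only (log2 fold change 0.25, adjusted p = 0.036), which was lost without aged intact replicate 2 (adjusted p = 0.0716), aged intact replicate 3 (0.121) or aged injured replicate 3 (0.151), with only the 6 aged arrays (0.0633) and with the replicate number as a block (0.0544). Without young injured replicate 2, Rpl38 was called higher in young mice too (adjusted p = 0.0072), and without aged intact replicate 3 it lost its call in aged mice (adjusted p = 0.0565). The young call of Rps29 (adjusted p = 0.023) was lost without young intact replicate 1 (0.0584) or 2 (0.0551) and without young injured replicate 1 (0.0664) or 3 (0.0944).

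Age was compared within injured cords and within intact cords. Among injured cords, 1 of 44 members was called higher and 0 lower in aged mice, where 4.41% and 4.58% of all genes were called. An unadjusted p under 0.05 was found for 5 of 44 members and for 3168 of all 10511 genes, a larger share than among the members. The median log2 fold change was 0.07, beside -0.04 for all genes. In 6 members all 3 aged arrays lay above all 3 young arrays and in 0 below, against 14.0% and 14.1% of all genes. The share of members above (13.6%) was near that of all genes, and the share below was 0. The number of all genes called here moved with the arrays fitted. It was 945 with all arrays, 0 with only the 6 injured arrays, 3064 without aged injured replicate 2 and 291 when the second young injured array was left out.

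The member called was Rpl14, a large subunit protein. It read 79.7, 66.8 and 63.5 in aged injured cords, against 52.3, 45.9 and 55.7 in young injured cords, and its log2 fold change was 0.45 ± 0.12 (adjusted p = 0.045). It read 54.1, 50.3 and 49.2 in aged intact cords, against 52.7, 56.2 and 60.1 in young intact cords, all close to the cutoff. The call was lost without any 1 of the 12 arrays other than aged injured replicate 2, with adjusted p between 0.0568 and 0.145, and also with the replicate number as a block (0.0577), with only the 6 injured arrays (0.209) and with no cutoff (0.0758). Without aged injured replicate 2, 5 members were called higher in aged injured cords, namely Rps25 (log2 fold change 0.71, adjusted p = 0.018), Rpl14 (0.48, 0.033), Rpl37 (0.33, 0.039), Rps19 (0.24, 0.030) and Rps20 (0.17, 0.035), where 11.6% of all genes were called higher, so 5 of 44 is near the share of all genes. With all arrays these other 4 members had log2 fold changes of 0.56 for Rps25 (adjusted p = 0.069), 0.28 for Rpl37 (0.094), 0.17 for Rps19 (0.15) and 0.14 for Rps20 (0.075).

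Among intact cords, 0 of 44 members were called between aged and young mice, where 0.542% of all genes were called higher and 0.266% lower. At an unadjusted p under 0.05 there were 2 members, beside 1073 of all 10511 genes. The median log2 fold change was -0.0030, beside 0.0044 for all genes. The 2 members were Rps27, at least 1.63-fold higher in aged than in young intact cords with the cutoff as the floor (adjusted p = 0.19), and Rps20 (log2 fold change 0.16 ± 0.05, adjusted p = 0.21). Rps20, a protein of the head of the small subunit, read 3984, 3930 and 3805 in aged intact cords, against 3477, 3612 and 3389 in young intact cords, without overlap. When only these 6 arrays were fitted, both were called, at adjusted p = 0.00081 for Rps27 and 0.049 for Rps20, in a fit that called 494 genes, with 2.63% of all genes higher, against 85 called with all arrays. Rps27 was also called without aged injured replicate 1 (adjusted p = 0.044). In 4 members all aged intact arrays lay above all young intact arrays and in 1 below, against 14.3% and 11.2% of all genes. After centring on the members, 0 of 44 departed from the set between aged and young injured cords, where 9.23% of all genes were called, and 0 between aged and young intact cords, where 0.866% were. At an unadjusted p under 0.05 these were 7 and 2 members, beside 3433 and 887 of all 10511 genes. Without aged injured replicate 2, 4 members departed between injured cords. The share of all genes departing in that fit was not counted, so the 4 cannot be set against it.

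The injury difference was numerically larger in aged than in young mice for 36 of the 44 members and for 4356 of all 10511 genes tested. The members share the same arrays and are no independent replicates. The median difference between the ages was 0.08 on the log2 scale for the members, beside -0.06 for all genes. The interaction of age and injury, which tests this difference gene by gene, called 0 of 44 members, against 0.438% of all genes. An unadjusted p under 0.05 was found for 1708 of all 10511 genes and for 4 of the 44 members. These were Rpl14 (difference 0.58, adjusted p = 0.15), Rpl22l1 (0.23, 0.29), Rps25 (0.56, 0.30) and Rps27 (adjusted p = 0.19), which lay under the cutoff in 3 of the 4 groups. Over both ages, 35 members were called higher in each, 2 lower in each, 1 higher in young only, 3 higher in aged only, 1 lower in aged only and 2 in neither. The members called at 1 age only were Rpl12 in young mice and Rpl14, Rpl37, Rpl38 and Rps27 in aged mice, and with no interaction called, these calls do not show a difference between ages. Rpl12, a protein at the base of the ribosomal stalk, was at least 1.15-fold higher in young injured than in young intact cords (adjusted p = 0.010), with the cutoff as the floor.

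Of the ribosomal proteins whose symbols the rule does not take, all 4 tested were higher after SCI at both ages, against the same 35.6% and 33.9% of all genes. Rplp0, the core of the ribosomal stalk, had a log2 fold change of 1.03 in aged and 0.88 in young mice, above every bright member except Rps27l. Fau, which encodes a ubiquitin-like fusion of a small subunit protein, had 0.57 and 0.62, the stalk protein Rplp2 had 0.60 and 0.58, and Rpsa, a small subunit protein also known as a laminin receptor, had 0.55 and 0.35. By contrast, of 75 mitochondrial ribosomal proteins, which serve the separate ribosome of mitochondria, 6 were higher and 40 lower in aged mice, where 39.9% of all genes were lower, and 5 higher and 38 lower in young mice, where 34.1% were, and their median log2 fold changes were -0.18 and -0.20. Among them Mrpl47 (-1.12 in aged and -1.04 in young mice) and Mrpl46 (-0.85 and -0.98) fell and Mrpl33 (1.06 and 0.50) rose.

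For genes that make and regulate ribosomes, the counts are to be read against the 35.6% of all genes higher and 39.9% lower in aged mice and the 33.9% and 34.1% in young mice. Of 47 genes of ribosome assembly and the nucleolus, 16 were higher and 9 lower in aged mice and 16 higher and 12 lower in young mice. The nucleolar helicase Ddx21 (1.01 and 1.03) rose, while Nop56 (-1.03 and -0.91), a protein of small nucleolar ribonucleoproteins, and Wdr12 (-0.74 and -1.05), a factor of large subunit maturation, fell. Without young injured replicate 1, 7 instead of 12 genes of this list were lower in young mice. The shares higher at both ages were near those of all genes. Of 9 RNA polymerase I genes, which transcribe ribosomal RNA, 3 were higher and 3 lower in aged and 2 higher and 2 lower in young mice, with Polr1d at 1.04 and 0.70, and the aged shares were near those of all genes.

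Of 36 translation initiation factors, 20 were higher and 11 lower in aged mice and 19 higher and 13 lower in young mice, with the share lower in young mice near that of all genes. Pabpc1, the poly(A)-binding protein whose own mRNA is a TOP mRNA, rose by 1.32 in aged and 1.23 in young mice, and the cap-binding relative Eif4e2 by 2.35 and 1.74, while Eif5a2 fell (-1.97 and -1.58). Of 12 elongation and release factors, 7 were higher and 3 lower in aged and 6 higher and 2 lower in young mice. Eef2k, the kinase that inhibits elongation factor 2, had 0.61 and 0.77, and the neuron and muscle form Eef1a2 had -1.49 in aged mice (called) and -0.85 in young mice (not called, adjusted p = 0.070).

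Of 15 ribosomal protein kinases and regulators of TOP mRNAs, 4 were higher and 7 lower in aged and 4 higher and 6 lower in young mice, not far from the shares of all genes. Eif4ebp1, the translation repressor that mTOR phosphorylates, was at least 6.75-fold higher in aged and at least 4.53-fold higher in young injured than in intact cords. Myc, a transcription factor that drives ribosomal genes, was at least 1.82-fold and 1.32-fold higher, and the S6 kinase relative Rps6ka6 was at least 2.44-fold and 2.40-fold lower, all against the cutoff as the floor. Of 15 p53 targets, a list set beside Rps27l, 9 were higher and 1 lower in aged mice, where 35.6% and 39.9% of all genes were. In young mice 10 were higher and 1 lower, against 33.9% and 34.1% of all genes. The lowest log2 fold change of the list was -0.92 in aged and -0.58 in young mice. The cell cycle genes Ccng1 (1.10 in aged and 1.22 in young mice) and Cdkn1a (0.99 and 0.58) and the p53-induced Trp53inp1 (0.94 and 1.22) were among the targets that rose, and the apoptosis gene Pmaip1 was at least 2.29-fold and 1.85-fold higher. Between aged and young injured cords, 5 genes of these lists were called, with Eif4e higher and Sbds, Mrps6, Phlda3 and Perp lower in aged mice. They were 1 of 36 initiation factors, 1 of 47 assembly genes, 1 of 75 mitochondrial ribosomal proteins and 2 of 15 p53 targets. Of all genes, 4.41% were called higher and 4.58% lower. With only the 6 injured arrays, 0 of all genes were called.

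**Figure D5:**
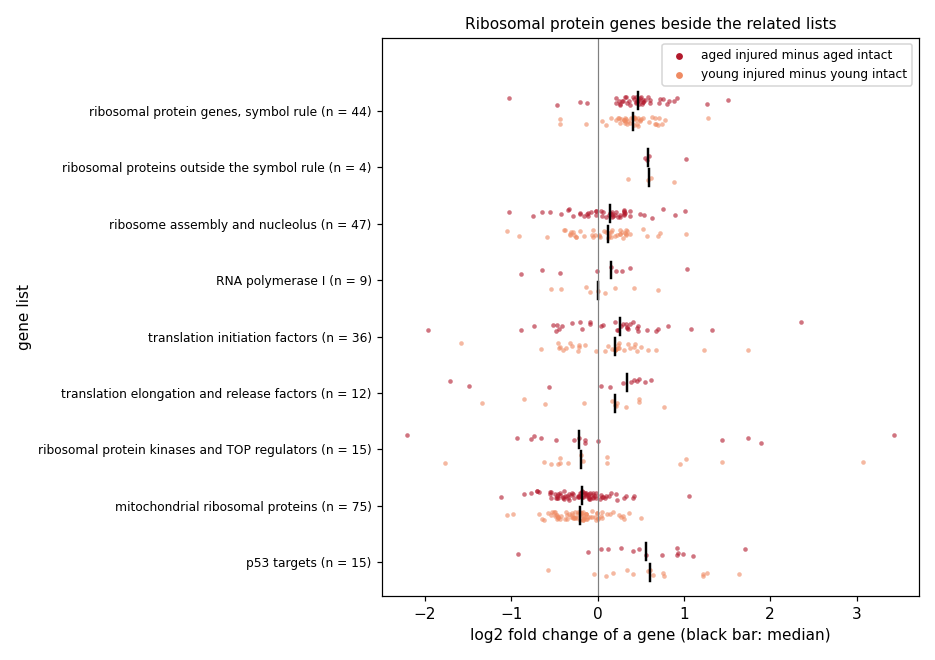
Log2 fold change between injured and intact cords (horizontal axis) of every tested gene in the ribosomal protein set and in 8 related lists (vertical axis), in aged (dark red) and young (orange) mice, with the median of each list as a black bar. The ribosomal protein genes lie mostly to the right of 0 with medians of 0.46 and 0.41, whereas the mitochondrial ribosomal proteins lie mostly to the left with medians of -0.18 and -0.20.

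Other probes of the same genes gave the same direction with 1 exception. The 20 members with other single-gene probes above the cutoff had 41 such probes, and the sign was that of the chosen probe for 40 in aged and 41 in young mice, and their median log2 fold changes were 0.58 and 0.52. Of the 44 chosen probes, 14 have an identifier ending in _x_at and 2 in _s_at, marks of the maker for probes that may bind several transcripts. The median log2 fold change was 0.50 in aged and 0.41 in young mice for the 14 and 0.40 and 0.37 for the 12 probes with a plain identifier. Without any _x_at or _s_at probe, 37 members could be tested, of which 31 were higher and 3 lower in aged and 30 higher and 2 lower in young mice. Of all genes tested in this setting, 35.1% were higher in aged and 33.6% in young mice, and the shares lower are not given here.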

How the data were processed

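RNA of each of 12 spinal cords was hybridized to 1 Affymetrix mouse array. The authors converted the scans with MAS 5.0, and the deposited values are linear signal intensities, scaled to a trimmed mean of 100 per array (trimmed by 2% at each end, as found in the values). No detection calls were used. The annotation pairs 34958 of the 45101 probes with a single gene and 932 with more than 1 gene, and leaves 9211 unnamed. Each gene was read by its probe of highest mean signal. The 10511 genes whose mean signal exceeded 50 in any of the 4 groups were fitted on the log2 scale without pseudocount with limma 3.58.1 in R 4.3.3 (lmFit, eBayes with a trend), with 1 mean per group over all arrays, two-sided, Benjamini-Hochberg adjusted. The number of arrays limits the precision. The fit was tested on simulated data.

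Members named are up to 8 called per direction by log2 fold change, up to 5 departures per side, relatives of other members, the 3 brightest and 3 weakest, and up to 3 genes per related list; others were chosen after their values were seen. The members and lists were chosen with earlier results of these data known. Alternatives covered normalization, the cutoff, a pseudocount of 16, the trend, the arrays fitted, a replicate block, the choice of probe and leaving out each array. Figures were drawn with Python 3.11.15 and matplotlib 3.10.9.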

Additional observations from a re-analysis of the deposited data

Results flagged for a closer look

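Probes that match a ribosomal protein gene together with other genes were not used in the comparisons above, and they carried a signal of their own. There were 109 such probes, 94 of them above the cutoff. In aged mice 82 of the 94 were called higher and 2 lower after SCI, where 35.8% of all 18615 probes tested were called higher and 38.8% lower, and in young mice 80 were higher and 2 lower, against 33.5% and 33.6%. Their median log2 fold change was 0.41 in aged and 0.42 in young mice. Which of the matched genes gave the signal was not tested.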

How the results depend on the processing

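The members higher after SCI were 31 to 40 in aged and 30 to 37 in young mice over all alternatives run. The share of all genes called higher was 24.1% to 36.1% in aged and 23.4% to 35.5% in young mice, lowest with no cutoff. The lowest aged count, 31, came with quantile normalization and without _x_at and _s_at probes, and the lowest young count, 30, without those probes, where 37 members were tested. Quantile normalization lowered the median log2 fold change to 0.26 in aged and 0.25 in young mice, which follows in part from its construction, since it gives the brightest probes of every array the same values. Under it Rpl38 turned to -0.0082 in aged and -0.0112 in young mice.

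Leaving out 1 array each gave 36 to 40 higher and 1 to 3 lower members in aged mice and 35 to 37 higher and 1 to 2 lower members in young mice, and 0 to 5 higher members between aged and young injured and 0 to 1 between aged and young intact cords. In the 2 comparisons of age, 1.10% to 11.6% of all genes were then higher between injured cords and 0.247% to 1.25% between intact cords. The members departing from the set were then 0 to 4 between aged and young injured cords, 4 of them without aged injured replicate 2. The share of all genes departing in these fits was not counted. The log2 fold change of Rps19bp1 in young mice ranged between -0.0403 (without young injured replicate 3) and 0.128, and that of Rpl39 in aged mice between -0.287 and 0.0296 (without aged injured replicate 3), neither called.

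Between aged and young injured cords, the 1 call became 0 with no cutoff, with only the 6 arrays of both groups and with the replicate block. Between intact cords, only the 6 arrays gave 2 members higher and 1 departing. By the centre on deviations, departures between injured cords were 1 with quantile normalization, 1 without a trend in the spread and 0 to 2 with 1 array left out. The members departing after SCI were 19 in young mice with no cutoff and 18 without _x_at and _s_at probes, against 29, and 18 in aged mice without those probes, against 33. The shares of all genes departing under these alternatives were not counted. Rps4x in aged mice (adjusted p = 0.0532) and Rpl7l1 in young mice (0.0662) lost their calls with the mean of all probes, and Rpl13a in aged mice (0.107) with quantile normalization. The mean of all probes also gave 4 elongation and release factors higher in aged and 3 in young mice, and 4 kinases and regulators of TOP mRNAs lower in aged mice. In that setting 34.9% of all genes were higher in aged and 33.0% in young mice. The share lower and the numbers tested per list in it are not given here. The cause of these changes was not tested.

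The replicate numbers of the titles are shared between groups, but deviations of same-numbered arrays correlated at 0.595, 0.667 and 0.0145 between the injured groups and at -0.0783 to 0.0893 otherwise. Nothing in the sources says that a number marks a pair, and not every pair correlated, so the numbers were not used to pair arrays. With the replicate block, 37 members were higher and 3 lower in aged and 36 higher and 2 lower in young mice, and Rpl14 (adjusted p = 0.0577) and Rpl37 (0.0544) lost their calls. In that fit, 35.2% of all genes were higher in aged and 33.6% in young mice. An interaction from only 6 arrays could not be fitted. The 3 mice per group limit every comparison.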
